A study of Mus musculus with 15 samples.

Results

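The 9 genes described here encode kinases and ubiquitin enzymes that set how long clock proteins last, and the question was which of them had rhythmic ribosome binding in the liver. The genes are Csnk1d, Csnk1e, Csnk1a1, Gsk3b, Csnk2a1, Fbxl21, Btrc, Fbxw11 and Usp2, chosen by symbol among 20097 genes. They had 20 RefSeq transcripts of the 28167 counted, and all 20 had a mean of at least 10 reads per library, the minimum for testing. Ribosome-protected fragments were sequenced from whole livers of wild-type male C57BL/6N mice, 8 to 10 weeks old, that had spent 2 weeks under 12 h of light and 12 h of darkness. After 24 h in constant darkness, livers were taken every 4 h at 7 circadian times (CT), CT0 to CT24, with 2 mice per time, which gave 14 libraries. All groups share this strain, genotype and regimen, so time is the only factor. The files hold the number of reads in the 5′UTR, coding sequence (CDS) and 3′UTR of each transcript. Fewer ribosomes per mRNA and less mRNA cannot be told apart from these counts, nor can fewer cells of a type and less RNA per cell.

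In the mammalian clock, CLOCK and BMAL1 drive transcription of the Period and Cryptochrome genes, whose proteins then repress them. The repressors are marked for destruction by phosphorylation and ubiquitination, and this turnover helps set the length of the cycle. Casein kinase 1 phosphorylates PER proteins, the F-box proteins encoded by Btrc and Fbxw11 (together called beta-TrCP) bind phosphorylated PER and pass it to the proteasome, and deubiquitinases such as USP2 remove ubiquitin from clock proteins.

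The total count per library ranged from 40593197 to 90458783. The 6 hepatocyte markers (Alb, Apoa1, Ttr, Cyp2e1, Tat and Hnf4a) were read in every library, with a sum of 25235 to 58206 CPM (reads scaled to a common library total). In CT20 replicate 1, 10.1% of 2547 transcripts with a mean of 20 to 60 reads had 0 reads, and in CT12 replicate 1 5.58%, against at most 2.43% elsewhere. CT20 replicate 2 had pancreatic acinar markers (4 of 5 listed were in the files, none at 0) at 1711 CPM, against 2.33 to 36.01 CPM in the others. In CT16 replicate 2 all nonzero counts were even (100%, against 48.9% to 50.4% in the other libraries), so its read counts may be doubled. With them halved, edgeR still called 1 of the 9 genes, Usp2.

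Usp2 has 3 RefSeq forms that differ at their 5′ ends. The short form, NM_198091, starts within the gene at base 44084920 on chromosome 9 of GRCm38.p6 (+ strand) and encodes 396 codons. The long forms, NM_198092 and NM_016808, start upstream at 44067021 and 44069429 and share a 619-codon reading frame. The short form's 5′UTR overlaps no exon of the long forms, and 147 nt of its CDS are its own, whereas 1044 nt are common to all 3 forms. The translation start sites are given because the forms begin at different start codons, the short form in its first exon and both long forms at 1 shared codon downstream of their first exons. The start codon is in capitals, and the sequence is from GRCm38.p6, + strand.
Usp2 short form, chr9:44085174-44085203: cgcccgctccgcagcATGcgtacctcctac
Usp2 long forms, chr9:44075392-44075421: gtaccaccctgaaggATGtcccagctctcc

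Usp2 was the only 1 of the 9 genes to pass the test for a 24 h rhythm. In the short form, which had the most reads, the CT0 pair of libraries had 189 and 144 reads, the CT4 pair 14 and 14, the CT8 pair 1206 and 526, the CT12 pair 2688 and 1828, the CT16 pair 1124 and 792, the CT20 pair 219 and 297, and the CT24 pair 153 and 161. The CT4 libraries were the lowest and the CT12 libraries the highest, and the CT4 values overlapped with those of no other time. Scaled by TMM (a factor that sets most transcripts equal between libraries), the CT0 mean was 2.75 ± 0.617 CPM (SD, n = 2 mice), the CT4 mean 0.241 ± 0.0343, the CT8 mean 11.7 ± 4.78, the CT12 mean 32.5 ± 0.973, the CT16 mean 17.0 ± 1.72, the CT20 mean 5.10 ± 0.192 and the CT24 mean 2.98 ± 0.202. The mean at CT12 was 135-fold that at CT4. A cosine of period 24 h fitted to log2 CPM gave a peak-to-trough difference of 4.99 ± 1.01 (SE, n = 14 libraries) and a peak at 14.3 ± 0.802 h. With edgeR's quasi-likelihood F test applied to both terms of the cosine, the adjusted p was 0.000234 (Benjamini-Hochberg over 17299 transcripts). This test called 1947 transcripts, 11.3% of those tested. The fitted edgeR difference was 4.09 on the log2 scale, which ranked 56 among the 1947. The forms NM_198092 and NM_016808, which share 1044 nt of CDS with it and may hold the same reads, gave edgeR adjusted p of 5.4e-05 and 0.000128.

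**Figure D1:**
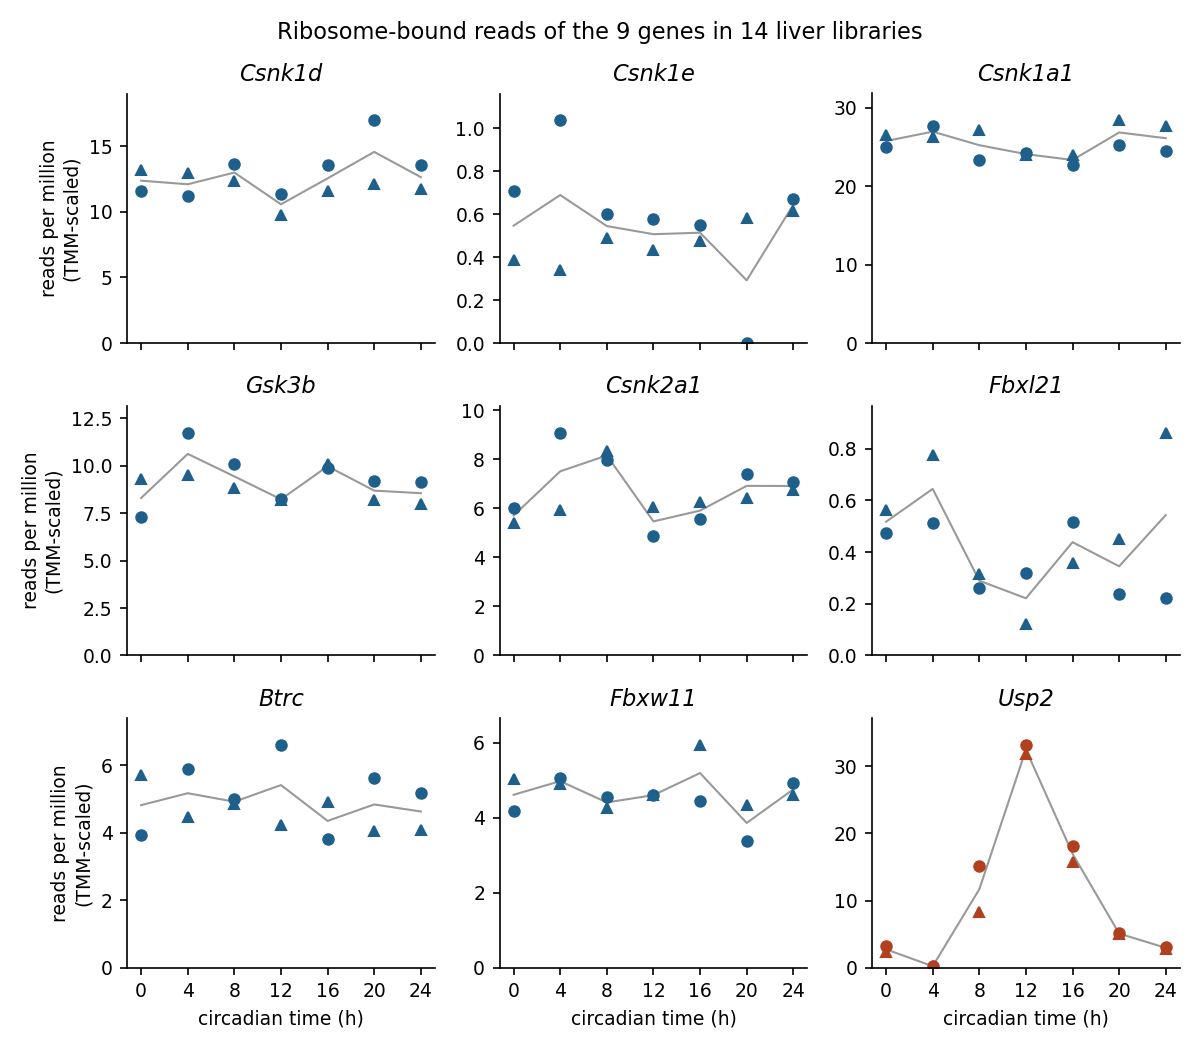
CPM, scaled by TMM, of the leading transcript of each of the 9 genes against circadian time in hours, with 2 libraries per time (circle, replicate 1; triangle, replicate 2) and a line through their means. Usp2 goes from 0.217 to 33.2 CPM, whereas in the other genes the highest time mean is 1.15 to 2.91 times the lowest, and Csnk1e has a library at 0.

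The call of Usp2 held when doubted libraries were left out, but no fit left out all of them together. Without CT12 replicate 1 and CT20 replicate 1 the edgeR adjusted p was 0.00125, and without CT20 replicate 2, the library with acinar markers, it was 0.000237. The 2 libraries at CT20 had 5.23 and 4.96 CPM. A lncRNA gene on the other strand, Gm39325, overlaps 71 nt of the 5′UTR of the short form and 200 nt of that of NM_198092, but no exon of NM_016808. The counting is not stated to use strand, so reads of the 2 genes in these stretches cannot be told apart.

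The 5′UTR of the short form, which no long form shares, held 713 reads over the 14 libraries, an unknown part of them in the 71 nt that overlap Gm39325. The CT0 pair had 16 and 12, the CT4 pair none, the CT8 pair 115 and 36, the CT12 pair 223 and 175, the CT16 pair 60 and 14, the CT20 pair 25 and 14, and the CT24 pair 19 and 4. These were 0 at CT4 in both mice and highest at CT12 in both. A cosine fitted to them peaked at 14.2 ± 1.23 h (permutation test over the 14 libraries, p = 0.0185, adjusted p = 0.0371 over 4 regions, a test chosen after the counts were seen). The 5′UTRs of the long forms NM_198092 and NM_016808 held 90 and 21 reads, with 0 reads in 3 and 9 libraries. Their fitted peaks were at 10.5 ± 1.61 h and 9.10 ± 1.33 h, and both had their highest mean at CT12. The permutation p was 0.0754 and 0.0451, and the adjusted p of both was above 0.05 (0.0754 and 0.0601). The 5′UTRs were not tested against each other. Per 100 nt, the short form's 5′UTR had 265 reads and those of the long forms 37.2 and 14.5. At CT4 the long form NM_198092 had 7 and 11 5′UTR reads, while the short form had none. An unknown part of the reads of NM_198092 lay in the 200 nt of its 5′UTR that overlap Gm39325. The CDS had 8628 reads in the short form and 7879 in the long forms, and how reads in the 1044 shared nt were counted is not stated.

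**Figure D2:**
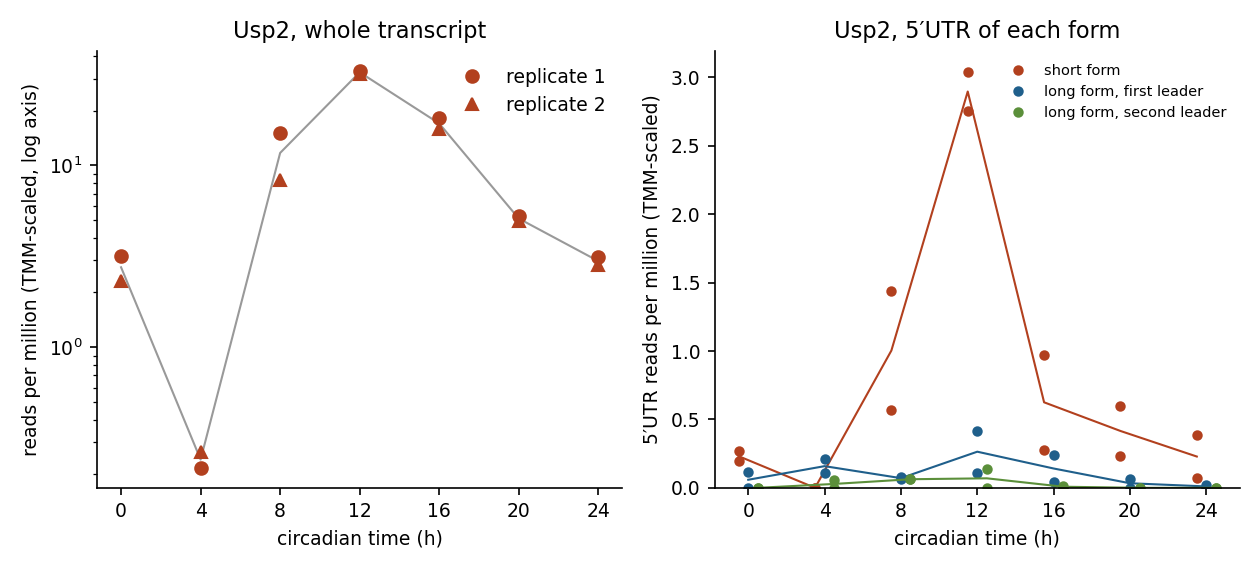
Left, CPM (TMM-scaled, log axis) of the short form of Usp2 against circadian time in hours, 2 libraries per time with a line through their means. Right, CPM in the 5′UTR of each form, where the short form is highest at CT12, with 223 and 175 reads, and has none at CT4.

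No shift of reads between leader and coding sequence through the day was detected. For the short form, 5′UTR reads over CDS reads varied by a fitted 0.12 from peak to trough (log2), with a limma adjusted p of 0.996, within a test of 7640 transcripts that called 0% of them (0 transcripts, 377 at an unadjusted p under 0.05). The CDS alone gave an edgeR adjusted p of 0.000157.

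The 5 other genes whose reads followed Usp2 most closely over the 14 libraries, of 8138 genes with a mean of at least 100 reads, were Per3 (Pearson's r = 0.973), Noct (0.965), Bhlhe40 (0.960), Wee1 (0.946) and Pcgf3 (0.945). Per3 is a Period gene, Noct encodes a deadenylase-like phosphatase, Bhlhe40 a repressor that binds E-boxes, and Wee1 a kinase that restrains entry into mitosis. All 5 peaked between 13.2 and 14.1 h in the edgeR fit, which put Usp2 at 13.5 h. Genes picked for their likeness to Usp2 would peak near it. These r are given as a description, since the libraries share their times.

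Promoter sequence was read at 12 distinct start sites of the 9 genes, from 250 bases before to 50 after the start, on both strands. The E-box CACGTG, bound by CLOCK and BMAL1, was found in 1 of the 12, that of the long Usp2 form NM_198092, with its first base 158 bases before the start. It is printed with the match in capitals (GRCm38.p6, + strand). No CACGTG lay in the window of the short form. The AGGTCA letters that ROR and REV-ERB proteins bind were in 1 window, that of NM_016808. CACGTT and TTATGTAA, a variant E-box and a D-box, were in none. Of 32851 RefSeq promoters of the same length, 7.15% held CACGTG, 16.3% AGGTCA, 4.68% CACGTT and 0.938% TTATGTAA. A match is a description of the letters, not of binding.
Usp2 long form promoter, chr9:44066851-44066880: gtgctttttctcCACGTGgttctctgtata

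None of the 8 other genes passed the edgeR test, with adjusted p from 0.444 to 0.962, although a miss does not show that they were constant. Their fitted peak-to-trough differences are given with the upper end of a 95% interval, and both hold for counts scaled by TMM. A fitted difference cannot fall below 0, so the interval is only approximate where the difference is near its SE. Scaled by the library total, the edgeR differences were 0.63 for Csnk1d, 0.69 for Csnk1e, 0.59 for Csnk1a1, 0.36 for Gsk3b, 0.54 for Csnk2a1, 1.39 for Fbxl21, 0.35 for Btrc and 0.43 for Fbxw11, with adjusted p of 0.172 to 0.729. Those of Csnk1d and Csnk1a1 lie above their TMM limits. The TMM factor itself varied over time, between 0.736 and 1.46, with a fitted log2 range of 0.46 ± 0.19 (SE) that peaked at 22.4 ± 1.74 h, and the total-count peaks of the 8 genes lay between 21.9 h and 2.29 h. Leaving out single libraries under TMM, the edgeR adjusted p of the 8 genes ran from 0.262 to 0.985, and the difference moved by over 1.5 times for 5 of them. It ran from 0.10 (without CT20 replicate 1) to 0.30 (without CT8 replicate 1) for Csnk1d, from 0.32 (CT4 replicate 1) to 0.93 (CT4 replicate 2) for Csnk1e, from 0.23 (CT4 replicate 1) to 0.46 (CT20 replicate 1) for Csnk2a1, from 0.12 (CT4 replicate 1) to 0.31 (CT20 replicate 1) for Btrc, and from 0.05 (CT0 replicate 1) to 0.23 (CT16 replicate 2) for Fbxw11. Over the 9 genes the median edgeR difference was 0.19 on the log2 scale, against 0.44 over all 17299 transcripts tested. These medians are not matched for read count. Csnk1e and Fbxl21, with the lowest mean counts, had 0.68 and 1.04, and the rest of the 8 genes 0.07 to 0.36.

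Csnk1d encodes casein kinase 1 delta, a main kinase of PER. Scaled by TMM, the CT0 pair had 11.6 and 13.2 CPM, the CT4 pair 11.2 and 13.0, the CT8 pair 13.6 and 12.3, the CT12 pair 11.4 and 9.79, the CT16 pair 13.5 and 11.6, the CT20 pair 17.0 and 12.2, and the CT24 pair 13.6 and 11.7. The highest value was in CT20 replicate 1, a library that stands apart, and both CT12 values lay below those of CT0, CT8, CT16 and CT24. The peak-to-trough difference was 0.19 ± 0.14 (SE, n = 14), with 0.50 as upper limit, and the edgeR adjusted p was 0.659. The edgeR difference of 0.19 became 0.10 without CT20 replicate 1 and 0.08 without it and CT12 replicate 1, with adjusted p of 0.862 and 0.925, and the fitted peak moved from 21.4 h to 1.25 h and 1.47 h. JTK_CYCLE, a rank test for rhythms, gave it a P of 0.0297 on CPM scaled by total count, with a peak at 0 h, and 1 on CPM scaled by TMM. This P is adjusted over the phases tried within a transcript, and with Benjamini-Hochberg adjustment over all transcripts the first became 0.167, whereas Usp2 had 0.0397. Over all transcripts tested, JTK_CYCLE called 22.2% on total-count CPM and 17.7% on TMM-scaled CPM. Of the 3840 transcripts called on total-count CPM, 3176 had a peak between 22 h and 2 h.

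Csnk1a1 encodes casein kinase 1 alpha, another kinase of PER. Over the 14 libraries its reads were the most even of the 9 genes. The CT0 pair had 24.96 and 26.6 CPM, the CT4 pair 27.7 and 26.2, the CT8 pair 23.3 and 27.2, the CT12 pair 24.2 and 23.999, the CT16 pair 22.7 and 24.1, the CT20 pair 25.3 and 28.4, and the CT24 pair 24.5 and 27.7. The lowest was 22.7 and the highest 28.4, and both pairs at CT0 and CT4 lay above those at CT12 and CT16. The peak-to-trough difference was 0.16 ± 0.07 (SE, n = 14), with 0.31 as upper limit, and the edgeR adjusted p was 0.594. On total-count CPM, JTK_CYCLE gave a P of 0.0439, with a peak at 0 h (0.198 with Benjamini-Hochberg adjustment over all transcripts), and 0.308 on TMM-scaled CPM.

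Csnk1e, casein kinase 1 epsilon, the kinase changed in the tau hamster, was read little. Its leading transcript had 0 to 67 reads per library, 0 in CT20 replicate 1 and 35 in the other library of that time. The least-squares difference was 1.71 ± 1.26 (SE), with 4.48 as upper limit. By edgeR the difference was 0.68 over all libraries, 0.35 without the library at 0 and 0.42 without that library and CT12 replicate 1, with adjusted p of 0.817, 0.857 and 0.825. A lncRNA gene, Gm16059, overlaps 6 nt of its CDS on the other strand. The other 2 transcripts of the gene gave adjusted p of 0.817 and 0.823 (edgeR).

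Gsk3b encodes glycogen synthase kinase 3 beta, which phosphorylates CRY2 and REV-ERB alpha. It had 385 to 805 reads per library, from 7.32 to 11.7 CPM with a median of 9.17, and an antisense lncRNA gene, BC031361, overlaps 260 nt of its 5′UTR, where reads of the 2 genes cannot be told apart. The peak-to-trough difference was 0.13 ± 0.15 (SE, n = 14), with 0.45 as upper limit, and the edgeR adjusted p was 0.844. Without CT12 replicate 1 and CT20 replicate 1 its edgeR difference went from 0.13 to 0.21, with an adjusted p of 0.719. Csnk2a1 encodes the catalytic alpha subunit of casein kinase 2, which phosphorylates PER2 and BMAL1. It had 310 to 638 reads, from 4.87 CPM in CT12 replicate 1 to 9.10 CPM in CT4 replicate 1. Its difference of 0.33 ± 0.20 had an upper limit of 0.77, with an edgeR adjusted p of 0.444, the lowest of the 8. The 2 libraries at CT8 had 7.98 and 8.35 CPM, above those of CT12 at 4.87 and 6.07.

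Fbxl21 encodes an F-box protein that ubiquitinates CRY proteins. It had 7 to 49 reads per library, and its mean of 25.6 was the lowest of the 9 genes. At CT24 its libraries had 11 and 49 reads. The peak-to-trough difference was 1.02 ± 0.49 (SE, n = 14), with 2.098 as upper limit, and the edgeR adjusted p was 0.458. Fbxl21 and Csnk1e, with at most 67 reads per library, had the widest limits of the 8 genes.

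Btrc and Fbxw11 encode the beta-TrCP proteins. Btrc had 232 to 535 reads, from 3.81 to 6.60 CPM, and the highest was CT12 replicate 1 beside 4.23 CPM in the other CT12 library. Its difference was 0.18 ± 0.21 (SE), with 0.63 as upper limit, and the edgeR adjusted p was 0.844. Fbxw11 had 141 to 372 reads, from 3.37 CPM in CT20 replicate 1 to 5.93 CPM in CT16 replicate 2. Its difference was 0.10 ± 0.15 (SE), with 0.44 as upper limit, and the edgeR adjusted p was 0.962. The other 3 transcripts of each gene had adjusted p between 0.831 and 0.989, and the other Csnk1d transcript 0.702.

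Since a call in 1 gene and not in another is no test of their difference, the ratio of CDS reads within each library was tested for 5 pairs, by permutation of the times over the 14 libraries with adjustment over the 5. Usp2 over Csnk1d went from 0.0207 and 0.0223 at CT4 to 2.70 and 3.00 at CT12, and Usp2 over Btrc from 0.0382 and 0.0632 at CT4 to 4.58 and 6.79 at CT12. The CT4 and CT12 values do not overlap in either pair. Their peak-to-trough differences were 4.99 ± 0.98 and 5.09 ± 1.01 on the log2 scale (SE, n = 14), with adjusted permutation p of 0.0018 for both. The paralogous pairs gave no such result. Csnk1d over Csnk1a1 ran from 0.423 to 0.769 (adjusted permutation p = 0.729), and Btrc over Fbxw11 from 0.720 to 1.51 (adjusted permutation p = 0.729). Csnk1d over Csnk1e gave the same adjusted permutation p of 0.729, with its highest ratio in CT20 replicate 1, where Csnk1e had 0 reads. Without that library the fitted difference went from 1.81 to 0.14 for Csnk1d over Csnk1e, from 0.22 to 0.06 for Csnk1d over Csnk1a1 and from 0.20 to 0.45 for Btrc over Fbxw11, with adjusted permutation p of 0.936, 0.936 and 0.264. Other libraries moved these the other way, to 2.34 for Csnk1d over Csnk1e without CT20 replicate 2, to 0.38 for Csnk1d over Csnk1a1 without CT8 replicate 1 and to 0.11 for Btrc over Fbxw11 without CT16 replicate 1, and none passed.

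The levels of the genes were compared per length of CDS. In CPM per kilobase (mean ± SD over 14 libraries), Csnk1a1 was first with 23.9 ± 1.84, followed by Csnk1d with 9.77 ± 1.38, Gsk3b with 5.35 ± 0.697 and Csnk2a1 with 5.07 ± 0.950. Usp2 had a mean of 7.93 ± 8.39 and a median of 3.89, Fbxw11 a mean of 2.67 ± 0.338, Btrc 2.59 ± 0.499, Csnk1e 0.421 ± 0.181 and Fbxl21 0.169 ± 0.158. The order follows the mean of log2 densities, and by the plain mean Usp2 would stand between Csnk1d and Gsk3b. Csnk1a1 exceeded Csnk1d, Csnk1d exceeded Gsk3b, and Btrc exceeded Csnk1e in 14 of 14 libraries each (exact sign-flip test, two-sided, p = 0.000122, the smallest it can give, adjusted p = 0.000326 over 8 neighbor pairs). Csnk1e exceeded Fbxl21 in 12 of 14, with 0 reads for both in CT20 replicate 1 and the reverse in CT24 replicate 2 (exact sign-flip test with 0.5 reads added, p = 0.00061, adjusted p = 0.00122), an order that turned when reads of the whole transcript were used. The other 4 neighbor pairs, Gsk3b and Csnk2a1, Csnk2a1 and Usp2, Usp2 and Fbxw11, and Fbxw11 and Btrc, did not differ beyond their spread, with adjusted p of 0.413 to 0.528 (exact tests). Usp2 had no fixed place in the order. At CT12 it reached 25.1 and 23.9 CPM per kilobase, beside 23.7 and 22.5 for Csnk1a1, and at CT4 it fell to 0.180 and 0.221, beside 0.812 and 0.241 for Csnk1e and 0.107 and 0.232 for Fbxl21.

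**Figure D3:**
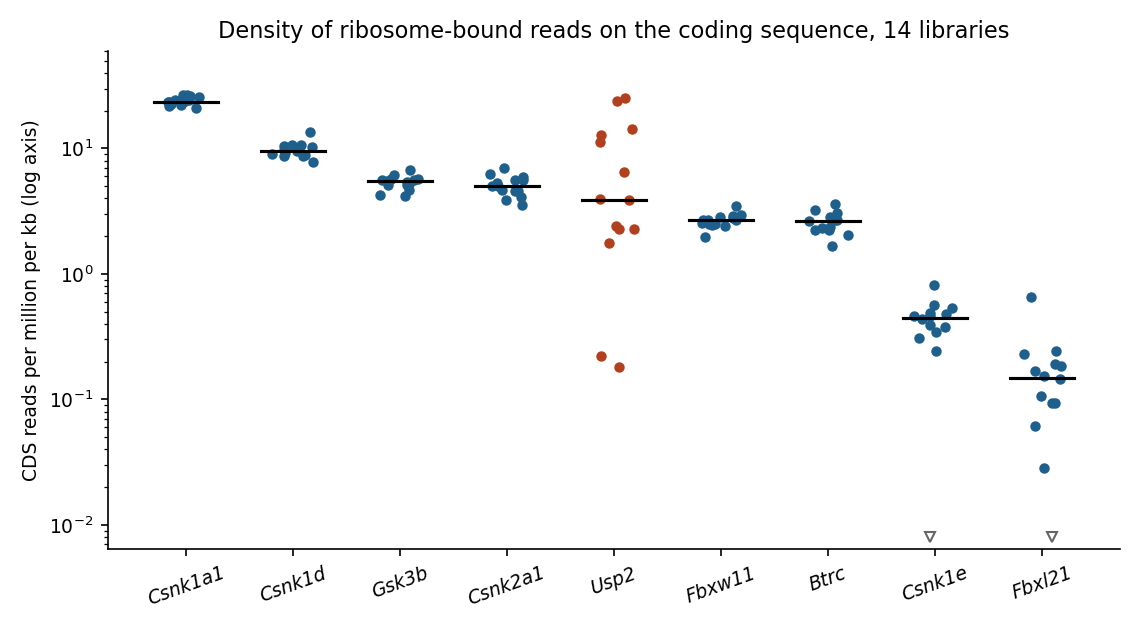
CDS CPM per kilobase (log axis) of the leading transcript of each gene, ordered by mean log2 density, with 14 libraries as points and the median as a bar. Open triangles at the lower edge mark libraries with 0 reads, which occur for Csnk1e and Fbxl21 in CT20 replicate 1. Usp2 spans 0.180 to 25.1, from the range of Fbxl21 and Csnk1e to that of Csnk1a1.

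Reads in 5′UTRs differed widely between the genes. As densities over the 14 libraries together, Usp2 (short form) had 265 reads per 100 nt of 5′UTR and 717 per 100 nt of CDS, and Csnk1a1 had 879 and 2008. Gsk3b had 123 and 449, so that its 1525 nt 5′UTR held 24.5% of its reads, against a median of 3.796% over transcripts tested. Its ratio of 5′UTR to CDS density was 0.274, below the median of 0.637 over 7640 transcripts. Csnk2a1 had 203 and 424. Csnk1d had 53.6 and 815, Btrc 36.2 and 220, Csnk1e 0.699 and 36.5, and Fbxw11 5.65 and 225. Few reads stand behind the last 3 leaders. CT20 replicate 1 held 22 of the 38 5′UTR reads of Btrc, whose ratio of 5′UTR to CDS density fell from 0.164 to 0.0731 without it. CT4 replicate 1 held 10 of the 19 of Fbxw11, whose ratio fell from 0.0252 to 0.0130 without it, and the only 1 of Csnk1e. Fbxl21 alone of the 9 leading transcripts had more reads per nt in the 5′UTR than in the CDS, with 176 and 182 reads, or 51.2 and 13.9 per 100 nt. Its density ratio of 3.68 became 5.04 without CT24 replicate 2, which had 49 CDS reads and no 5′UTR reads. The 5′UTR share of its reads ran from 0% to 100% between libraries. Over 7640 transcripts the median density ratio was 0.637, and 10% were above 1.80. In Btrc, NM_001286466 had 1100 5′UTR reads in a 543 nt 5′UTR, but 434 of its 539 annotated 5′UTR nt are coding in the leading form, so these reads cannot be given to a leader.

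**Figure D4:**
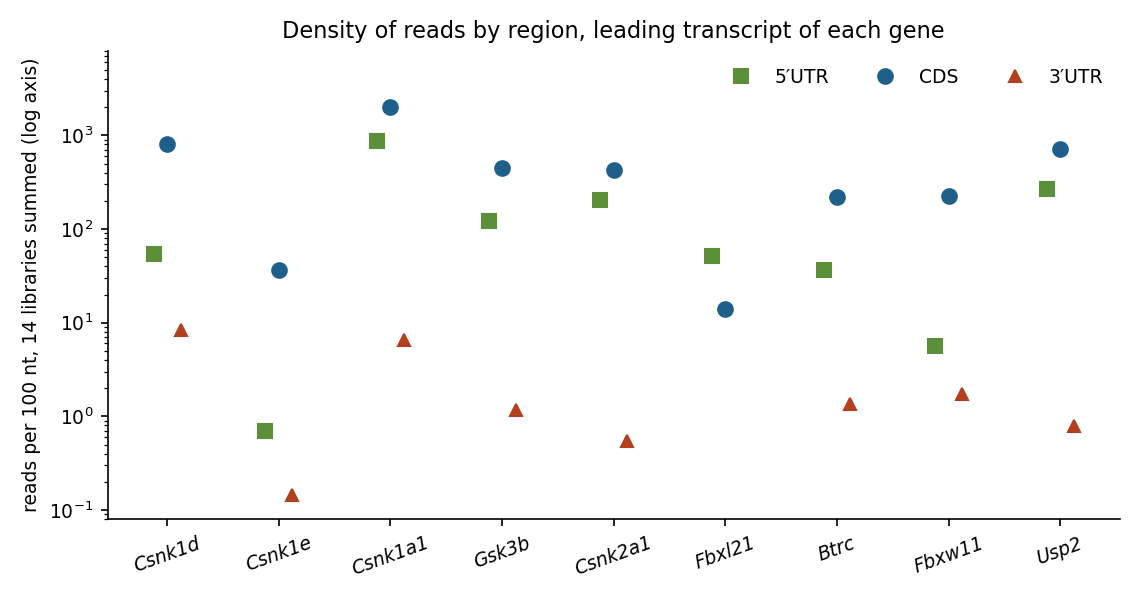
Reads per 100 nt (log axis) in the 5′UTR (squares), CDS (circles) and 3′UTR (triangles) of the leading transcript of each gene, summed over 14 libraries. Only in Fbxl21 is the 5′UTR (51.2) above the CDS (13.9), and its 3′UTR had no reads and is not drawn.

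Upstream open reading frames (uORFs), which start with ATG and reach a stop in the same frame within the 5′UTR, were counted in GRCm38.p6. The 5′UTR of Gsk3b had 8 and that of Fbxl21 had 7, and that of Csnk1d had 2. Those of Csnk2a1, Fbxw11, Usp2 and the leading transcripts of Btrc and Csnk1e had 0. The annotated 5′UTR of Fbxl21 is 377 nt against 344 nt in the files, and that of Csnk1a1 478 against 169, so the uORFs of Csnk1a1 are not given. The uORFs of at most 30 nt nearest the CDS are shown for the genes with the most 5′UTR reads per CDS read among those with uORFs, and for Csnk1d, whose leader was read little. Start and stop codons are in capitals. They end 67 nt, 21 nt and 108 nt before the CDS in Gsk3b, Fbxl21 and Csnk1d, and the reads were not assigned to single uORFs in the files.
Gsk3b uORF, chr16:38090435-38090458, + strand: ATGctgcatttatcattaaccTAG
Fbxl21 uORF, chr13:56525732-56525752, + strand: ATGtacttatgttgtagaTAA
Csnk1d uORF, chr11:120991119-120991139, − strand: ATGgtgaaagcggggccgTGA

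None of the 5 other members tested showed a daily change of the 5′UTR to CDS ratio either. The limma adjusted p was 0.809 for Csnk1a1, 0.812 for Csnk2a1, 0.842 for Csnk1d, 0.887 for Gsk3b and 0.975 for Fbxl21, and 0.874 for the Btrc transcript NM_001286466. Btrc (leading transcript), Fbxw11 and Csnk1e had a mean of fewer than 10 reads per library in the 5′UTR and were not tested.

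Of 36 other genes that act on clock protein turnover, 3 passed the edgeR test, against 11.3% of all transcripts and 10.6% with 1 transcript per gene. The peak times of the 3 lay between 11.8 and 16.2 h. Prkaa2, the catalytic alpha 2 subunit of AMP-activated protein kinase, which phosphorylates CRY1, had 14.6 to 16.7 CPM at CT0 to CT8 and 19.9 to 23.4 CPM at CT12 to CT20. These ranges do not overlap, and the CT24 pair lay between them at 17.8 and 17.3 CPM. Its peak-to-trough difference was 0.62 ± 0.09 (SE, n = 14), with a peak at 16.2 ± 0.535 h and an edgeR adjusted p of 0.00706. Huwe1, a large ubiquitin ligase, had 34.9 and 40.7 CPM at CT0 and 61.3 and 51.0 at CT12. Its difference was 0.51 ± 0.08, with an edgeR adjusted p of 0.0111, which became 0.0562 without CT12 replicate 1. Ddb1, the adaptor of the CUL4 ligases, had 106 and 102 CPM at CT0 and 124 and 156 at CT16. Its difference was 0.41 ± 0.08, with an edgeR adjusted p of 0.035 that rose above 0.05 when any of 8 libraries was left out (either at CT0 or CT4, CT8 replicate 1, CT12 replicate 2, CT16 replicate 2 or CT24 replicate 2), up to 0.092 without CT16 replicate 2. Ppp1ca, a catalytic subunit of protein phosphatase 1, lay just outside at 0.0503 (edgeR). Markers of other liver cells also varied over these times. The sum over 4 stellate cell markers was 201 and 164 CPM in the CT0 pair and 114 and 80.9 in the CT12 pair by library total, and 138 and 131 against 127 and 110 by TMM. CT0 replicate 1 had cholangiocyte markers at 19.7 CPM, against 2.11 to 9.14 in the other libraries. Without that library the edgeR adjusted p was 0.0103 for Prkaa2, 0.0296 for Huwe1 and 0.0539 for Ddb1. The part of these cells in the 3 results was otherwise not tested.

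By group, none of 6 other casein kinases and GSK3 and none of 7 genes of the SCF core and neddylation passed. Of 12 other ligases and deubiquitinases 2 passed, and of 11 other kinases and phosphatases 1, where 11.3% of all transcripts did. The groups were not tested against each other, and counts this small do not separate them from that share. The median edgeR peak-to-trough difference over the 36 genes was 0.27. With counts scaled by the library total, none of the 36 passed, against 8.25% of all transcripts, and the edgeR adjusted p was 0.106 for Prkaa2, 0.810 for Huwe1 and 0.49998 for Ddb1, whereas Usp2 had 0.000168. In these fits the difference was 0.77 for Prkaa2, 0.21 for Huwe1 and 0.39 for Ddb1, and the peaks were at 18.7 h, 16.4 h and 18.7 h. With the 7 times as a factor in edgeR none of the 36 passed either, against 7.08% of all transcripts, and 1 of the 9 genes, Usp2, did.

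**Figure D5:**
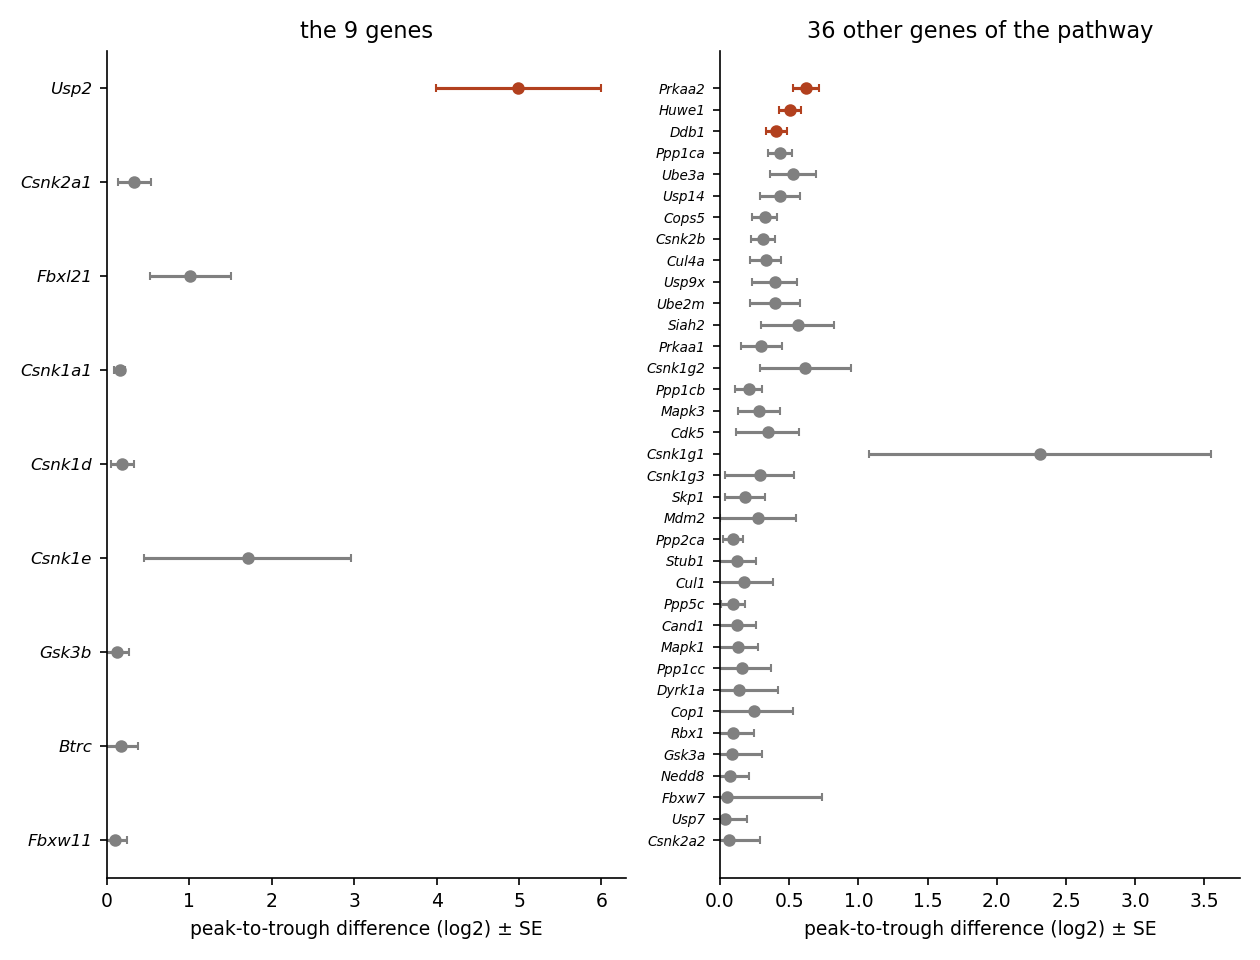
Fitted log2 difference between peak and trough with its standard error (n = 14 libraries) for the 9 genes (left) and the 36 others (right), ordered by edgeR adjusted p with the lowest on top. Red marks an adjusted p under 0.05: Usp2 at 4.99 on the left, and Prkaa2, Huwe1 and Ddb1 at 0.62, 0.51 and 0.41 on the right.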

How the data were processed

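Ribosome profiling counts were used from 14 liver libraries, with each circadian time as a group, taken from sample titles; the last pair is named CT24 while a label field gives CT00. The authors deposited raw counts of reads for each RefSeq transcript, split by region (CDS and both UTRs) and listed with the length of each region. Per the paper's methods and the submitters' processing notes, reads on rRNA were removed, the rest were aligned to mm10 with Bowtie2 2.1.0.0, and exact matches were kept with SAMtools 0.1.19.0. Reads with a single genomic location were used. How a read shared by several transcripts of a gene was counted, and whether strand was used, is not given in the sources used here. CT16 replicate 2 has 2 entries in the labels, which place both in 1 file, and all its nonzero counts are even.

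Symbols came from RefSeq (GRCm38.p6), which named 27836 of 28167 transcripts, and sequences from the same assembly. The 3 regions were added. Rhythms were tested in R 4.3.3 by edgeR 4.0.16 (scaling by TMM, quasi-likelihood F test of cosine and sine of 24 h, mean of at least 10 counts, threshold 0.05). JTK_CYCLE, the test named in the methods, was rewritten in Python 3.11.15 as an alternative, with its tied reference values ordered as by a period just under 24 h. DESeq2 1.42.0 and limma 3.58.1 (5′UTR over CDS counts as log2, pseudocount 0.5) were also used. Peak times and standard errors came from least-squares fits to log2 TMM-scaled CPM with a pseudocount of 0.5 reads. Permutation tests used 100000 shuffles. The leading transcript of a gene had the highest mean count. Named were the 9 members, pathway genes past the threshold, and the 5 genes most correlated with Usp2. The members and lists were chosen with earlier results of these data known. Marker lists covered hepatocytes, Kupffer cells, sinusoidal endothelium, stellate cells, cholangiocytes, erythroid cells, neutrophils and pancreatic acinar cells, with median summed levels of 37636, 74.3, 109, 115, 4.72, 74.5, 0.554 and 6.10 CPM. The edgeR, DESeq2, limma and JTK_CYCLE steps were tested on simulated data. With 2 mice per time an SD rests on 2 values. Alternatives were other scalings, count minimums, tests, regions, blocks and left-out libraries.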

Additional observations from a re-analysis of the deposited data

How the results depend on the processing

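Usp2 kept its call in all 33 alternatives, with adjusted p up to 0.00127 when single libraries were left out and a peak between 13.1 and 16 h. Each alternative but 1 called 1 of the 9 genes. JTK_CYCLE on total-count CPM called 3 of them, a setting in which it called 22.2% of all transcripts. These were Usp2, Csnk1d (JTK_CYCLE P of 0.0297) and Csnk1a1 (0.0439), of which Usp2 passed after Benjamini-Hochberg adjustment over all transcripts. Leaving out single libraries gave 1 gene each time.

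Of the 36 other pathway genes, 0 passed with total counts as scale and 0 with the 7 time points as a factor. JTK_CYCLE called 5 of the 36 on total-count CPM, against 22.2% of all transcripts, and 7 on TMM-scaled CPM, against 17.7%. With single libraries left out, edgeR called 2 to 4. The number of rhythmic transcripts was 1427 with total counts as scale (8.25% of those tested), 1225 with time as a factor (7.08%), 1251 with 1 transcript per gene (of 11747 tested), 3840 by JTK_CYCLE on total-count CPM and 3069 on TMM-scaled CPM (384 and 637 after Benjamini-Hochberg adjustment), and 1499 to 2062 when single libraries were left out. With the counts of CT16 replicate 2 halved it was 1942. The cause of these moves was not tested, except that fewer transcripts were tested with 1 per gene. Ddb1 lost its call in 15 of 32 alternatives, Huwe1 in 5 and Prkaa2 in 2.

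The replicate numbers are shared between times, but residuals from the cosine fit of same-numbered libraries correlated between -0.392 and 0.289, so the numbers were not taken as pairing. With the replicate block, edgeR called 1916 transcripts, the Usp2 adjusted p was 0.000308, and both Usp2 ratios stayed past the threshold. The ratio of 5′UTR to CDS reads gave 0 calls in each setting. The number of neighbor pairs past the threshold was 4 to 6. With reads of the whole transcript the order placed Csnk1e below Fbxl21, and Gsk3b below Csnk2a1 and Usp2. With the lowest-count transcript of each gene it placed Usp2 below Fbxw11 and Btrc. Mean counts were lowest for Fbxl21, at 25.6, and Csnk1e, at 33.1. A mean of at least 100 counts left both untested.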
